A study of Rattus norvegicus with 20 samples.

Results

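The genotype by phototherapy interaction of Gunn rat hippocampus is the difference between 2 light responses: treated minus untreated jaundiced pups, minus treated minus untreated non-jaundiced pups. A positive log2 interaction means that expression with light, relative to no light, was higher in jaundiced than in non-jaundiced pups. It was chosen as a contrast and not by any measured value, it uses all 20 libraries, and it was estimated for 15272 of 32883 listed genes, those that passed a low-count filter. In the labels, jj pups are homozygous for the jaundice allele of the Gunn rat and Nj pups, also written Jj, are heterozygous and not jaundiced. The 4 groups hold 5 pups each at postnatal day 6: jj with phototherapy, jj without, Nj with phototherapy and Nj without. They are called treated jj, untreated jj, treated Nj and untreated Nj here. Treated pups of both genotypes received LED phototherapy from day 4 through day 6, 12 h in all, in daytime cycles of 3 h on and 3 h off. All pups carry at least 1 Gunn allele, so no group is wild type, and the sex of the pups is not used as a group. One hippocampal lobe per pup was sequenced as a polyA library.

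Homozygous Gunn rats lack a working form of the liver enzyme that couples bilirubin, the yellow breakdown product of heme, to glucuronic acid, so homozygous pups accumulate unconjugated bilirubin that can enter the brain. Phototherapy turns bilirubin in the skin into isomers that are excreted without conjugation, and it is the standard treatment of neonatal jaundice. The interaction is the part of the light response that depends on genotype, and it asks whether light did something in jaundiced hippocampus that it did not do in non-jaundiced hippocampus.

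Total counts ran from 16.9 M to 27.1 M per library. Values after ± are SDs over the 5 pups of a group throughout, and ranges in brackets after an interaction are its 95% interval. Hippocampal neuron genes were present in every library: Prox1, of dentate granule cells, ran from 89.4 to 134.8 CPM (counts scaled by library size), Neurod6, of pyramidal neurons, from 218 to 362 CPM, and Camk2a from 289.5 to 433 CPM. Neighbouring tissue varied far more. Ttr, the transthyretin gene of the choroid plexus, ran from 3.57 to 9662 CPM and passed 1000 CPM in 3 treated jj, 1 untreated jj, 2 treated Nj and 1 untreated Nj libraries. The lowest correlation of log2 CPM between libraries of a group, across genes, was 0.979 in treated jj, 0.97 in untreated jj, 0.982 in treated Nj and 0.981 in untreated Nj pups. The sample titles carry a prefix whose meaning is not stated. Treated pups of both genotypes share 1 prefix, untreated jj pups have another, and untreated Nj pups have 3. Light and prefix therefore cannot be told apart within a genotype. In the interaction the shared prefix of the treated pups cancels and those of the untreated pups do not.

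No gene passed the test of the interaction. The edgeR quasi-likelihood F-test called 0 of 15272 genes (0%) at an adjusted p under 0.05, with 521 (3.41%) at an unadjusted p under 0.05, where evenly spread p-values would give 5%. Of these 521, 255 (1.67%) had positive and 266 (1.74%) negative interactions. The lowest unadjusted p was 0.000178 and the adjusted p of every gene named below was 0.99966. The second tool, DESeq2, and limma voom also called 0 genes for the interaction calls, with 615 and 529 genes at an unadjusted p under 0.05. Without untreated jj pup 3, the interaction at unadjusted p counted 1034 genes (6.74%) and still 0 calls. Without treated jj pup 1, 1 gene was called, LOC103689971, which has a paragraph of its own at the end of these results.

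How large a difference these libraries could have missed can be read from the intervals. The median standard error of the interaction was 0.118 on the log2 scale, against 0.0838 for light in jj and 0.0834 for light in Nj pups. Its 95% interval reached 0.245 to either side of the estimate at the median. For 32.1% of the genes tested the whole interval lay within 0.25 log2 of 0, a 1.19-fold difference between the light responses. For 69.6% it lay within 0.5 log2 (1.41-fold) and for 87.4% within 1 log2 (2-fold). For a gene whose interval lies within a bound, differences beyond that bound are outside its 95% interval.

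The interaction is also the jaundice difference under light minus the jaundice difference without light, and neither of those had a call in edgeR. Treated jj against treated Nj pups gave 0 calls (0%) with 1011 genes (6.62%) at an unadjusted p under 0.05, and untreated jj against untreated Nj pups gave 0 (0%) with 972 (6.36%). DESeq2 called 2 and 1 genes in these jaundice comparisons and limma voom 0 in both. Leaving out single libraries gave 1 call with light (without treated jj pup 1) and 1 without light (without treated Nj pup 4, or without untreated Nj pup 5).

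Treated and untreated pups differed in both genotypes, and the differences, which share no library between genotypes, were mostly of the same sign. Prefix differs with light in both, so light is used below as the name of the comparison. Treated pups of both genotypes also share a prefix that no untreated pup has. Agreement of sign between the genotypes therefore cannot be told apart from a difference between prefixes. Light in jj pups called 25 genes (0.164%), 6 higher (0.0393%) and 19 lower (0.124%), with 1978 (13%) at an unadjusted p under 0.05. Light in Nj pups called 611 (4%), 228 higher (1.49%) and 383 lower (2.51%), with 2770 (18.1%) unadjusted. The median standard errors of these comparisons were alike, as given above. A gene called in Nj and not in jj pups is not thereby shown to differ, since none of them passed the test of the interaction. Over all 15272 genes, 69.9% had the same sign in both genotypes, and the correlation of their log2 changes was 0.291 across genes, which are not independent replicates. Of the 611 genes called in Nj pups, 589 (96.4%) had the same sign in jj pups, and 378 (61.9%) had that sign with an unadjusted p under 0.05 in jj pups, against 11.6% of all genes tested. All 25 genes called in jj pups had the same sign in Nj pups, and 18 of them were also called there, which is 72% of the jj calls and 2.95% of the Nj calls. In the scatter of the light responses those shared genes lie close to the line of equal change, which their choice by calls in both genotypes favours.

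**Figure D1:**
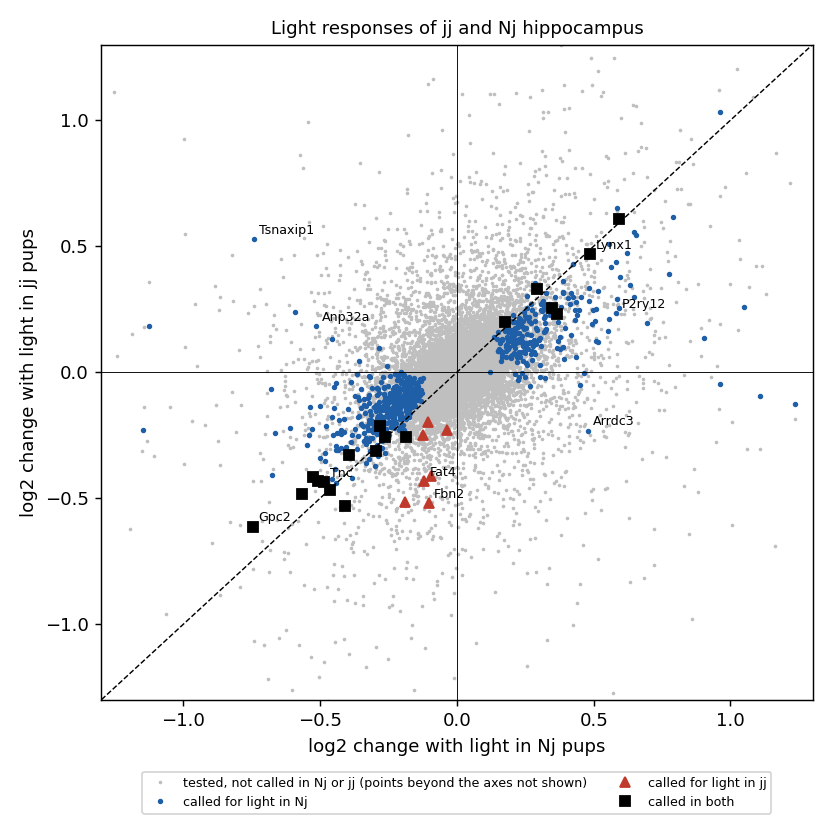
Log2 change with light in Nj pups (horizontal) against that in jj pups (vertical), 1 point per tested gene, with genes called in either or both genotypes coloured. The 18 genes called in both lie along the dashed line of equal change, while Tsnaxip1, Anp32a and Arrdc3 lie in the quadrants of opposite sign.

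The count of light in jj calls rested on single libraries. It was 0 without treated jj pup 2, 3 or 5 or untreated jj pup 4, and 5 without treated jj pup 4. It was 13 to 16 without untreated jj pup 1, treated Nj pup 1, 2 or 3, or untreated Nj pup 1 or 5, and 39 to 75 without treated jj pup 1, untreated jj pup 3, treated Nj pup 4, or untreated Nj pup 2 or 3. The light in Nj calls numbered 152 and 159 without untreated Nj pup 4 or 5 and 272 and 253 without treated Nj pup 2 or 5, and 1070 without untreated jj pup 3. Without the 7 libraries above 1000 CPM of Ttr, which leaves 2 treated jj and 3 treated Nj pups, 0 genes were called in jj and 112 in Nj pups. With the choroid plexus level as a covariate, light in jj calls numbered 83.

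Whether the response was weaker in jaundiced pups cannot be read from genes picked in Nj pups. The 611 Nj genes had a median absolute change of 0.14 log2 in jj and 0.251 log2 in Nj pups, but those genes were chosen for their Nj values, and the 25 jj genes showed the reverse, 0.413 log2 in jj and 0.295 log2 in Nj pups. The average of both light responses favours neither genotype, because in a balanced design it is independent of their difference. It called 1541 genes (10.1%), 664 higher (4.35%) and 877 lower (5.74%), and 1020 without untreated Nj pup 4. Their median change in the direction of light was 0.16 log2 in jj pups and 0.198 log2 in Nj pups. The median interaction in that direction was -0.039 log2, and the change was smaller in jj pups for 1086 of the 1541 genes (70.5%), against 54.4% of all genes tested. This median was below 0 in every alternative run, from -0.076 to -0.022 log2. Of the 1541 genes, 77 (5%) had an unadjusted interaction p under 0.05, against 3.41% of all genes tested. The change was smaller in jj pups for 63 of them and larger for 14. Among all 521 tested genes with such a p it was smaller in jj pups for 341 and larger for 180. Genes vary together within a pup, so these shares are descriptions and carry no p-value. The interval of the interaction lay within 0.5 log2 for 88.8% of the 1541 genes.

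The genes with calls in both genotypes show what a light response without a detectable interaction looks like. Tnc encodes tenascin C, an extracellular matrix glycoprotein of the developing brain. It stood at 422, 355, 324, 313 and 329.7 CPM in treated jj pups, against 468, 475, 467, 483 and 469 CPM in untreated jj pups. Its levels in Nj pups were 346, 336, 392, 319.7 and 328 CPM with light and 441, 452, 482, 528 and 507 CPM without. Treated and untreated pups did not overlap in either genotype. The log2 change with light was -0.44 in jj and -0.48 in Nj pups (edgeR adjusted p = 0.014 and 0.0013), and the interaction was 0.05 with a 95% interval from -0.15 to 0.25. Leaving out treated jj pup 1, the highest treated pup, turned the interaction to -0.02.

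Gpc2 encodes glypican 2, a heparan sulfate proteoglycan of growing axons. It stood at 28.3, 23.6, 24.6, 26.0 and 20.4 CPM in treated jj pups, against 37.4, 35.6, 38.6, 36.2 and 40.2 CPM in untreated jj pups. Treated Nj pups had 25.3, 23.7, 25.7, 25.4 and 20.3 CPM, against 33.6, 31.2, 43.8, 50.8 and 42.9 CPM in untreated Nj pups. Again the treated pups of each genotype all lay below the untreated ones, and the change was -0.61 log2 in jj and -0.74 log2 in Nj pups (adjusted p = 0.024 and 0.0013). Its interaction of 0.13 had an interval from -0.19 to 0.45. Draxin encodes a secreted axon guidance protein. It stood at 42.8, 36.5, 36.1, 34.0 and 31.9 CPM in treated jj pups, against 44.1, 47.2, 51.9, 54.4 and 56.1 CPM in untreated jj pups. In Nj pups it stood at 39.2, 35.7, 38.2, 34.7 and 34.1 CPM with light, against 55.5, 45.0, 56.4, 52.1 and 60.5 CPM without. The changes were -0.48 log2 in jj and -0.57 log2 in Nj pups (adjusted p = 0.02 and 0.0013), again without overlap, and the interaction was 0.08 (-0.16 to 0.32).

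Lynx1, whose product is a membrane-anchored modulator of nicotinic acetylcholine receptors, was higher with light. It stood at 158, 165, 154, 151 and 159 CPM in treated jj pups, against 116, 116, 113, 111 and 111 CPM in untreated jj pups. Its levels in Nj pups were 154, 138, 157, 155 and 169 CPM with light and 121, 135, 92.2, 96.1 and 106 CPM without. The change was 0.47 log2 in jj and 0.49 log2 in Nj pups (adjusted p = 0.014 and 0.002), with no overlap between treated and untreated pups. The interaction was -0.02 (-0.24 to 0.20) and turned to 0.012 without the Ttr-rich libraries. Cachd1, which encodes a protein related to the auxiliary alpha2delta subunits of calcium channels, had a like-sized fall in both genotypes. It averaged 69.8 ± 4.20 CPM in treated jj and 83.5 ± 3.15 CPM in untreated jj pups, and 70.1 ± 3.37 CPM in treated Nj and 84.0 ± 2.48 CPM in untreated Nj pups (SD, n = 5 each). Its light change was -0.26 log2 in jj and -0.26 log2 in Nj pups (adjusted p = 0.0216 and 0.0037). Its interaction was 0.00 with an interval from -0.13 to 0.14, the narrowest of these 5, and its sign changed when single libraries were left out.

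The other 13 shared genes had light changes of 0.18 to 0.61 log2 in size in both genotypes. Higher with light in both were Tuba4a, an alpha-tubulin, Ttll7, a tubulin polyglutamylase, Mical2, an actin regulator, Ano3, a member of the anoctamin family, and Adarb1, an RNA-editing deaminase. Lower in both were Reln, the secreted reelin of Cajal-Retzius cells and interneurons, the guidance receptors Robo1 and Nrp2, Mcm3 of the replicative helicase, Flnc, a filamin, Adamts7, a matrix protease, Sf3b3, a splicing factor, and AC141959.1. Reln averaged 505 ± 28.2 CPM in treated jj and 633 ± 43.5 CPM in untreated jj pups, and 501 ± 25.7 CPM in treated Nj and 658 ± 74.1 CPM in untreated Nj pups, with changes of -0.33 log2 in jj and -0.39 log2 in Nj pups. None of the 18 shared genes had an unadjusted interaction p under 0.05. Of all genes 3.41% had one, so 0 of 18 says little. The 18 were picked for passing in both genotypes, which favours like-sized changes and treated and untreated groups that do not overlap.

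**Figure D2:**
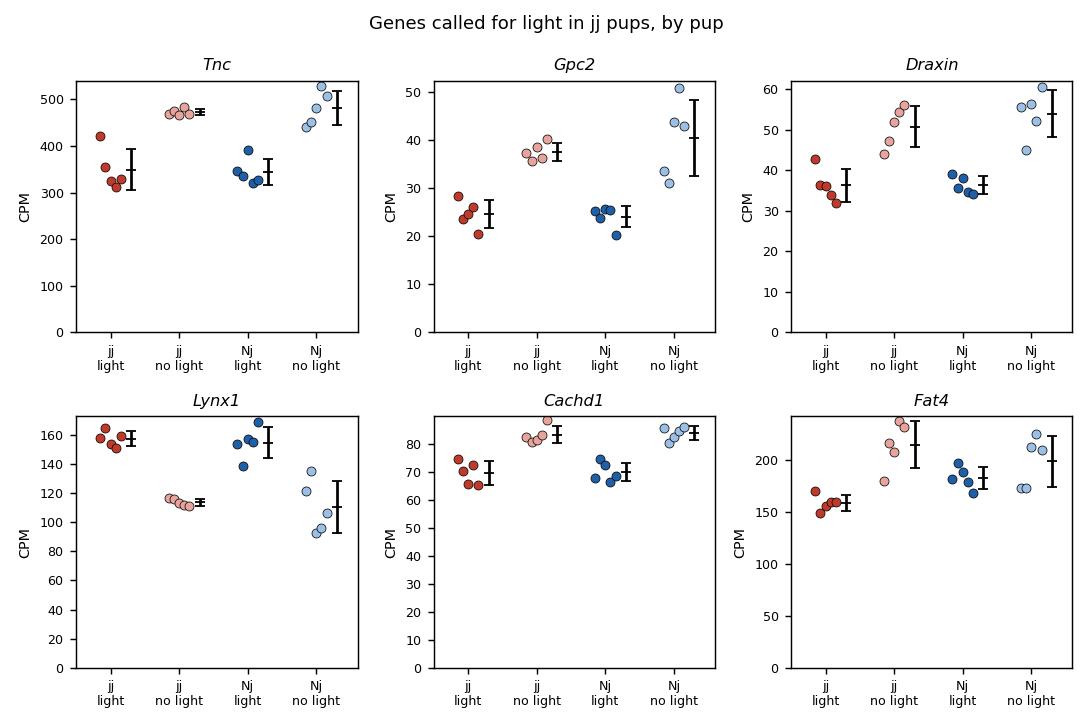
CPM of 6 genes called for light in jj pups, 1 point per pup, with mean and SD (n = 5) beside each group. Tnc, Gpc2, Draxin, Lynx1 and Cachd1 were called in both genotypes, and their treated groups of jj and Nj pups overlap, while Fat4 was called in jj pups and overlaps between treated and untreated Nj pups.

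Another 7 genes were called for light in jj and not in Nj pups, all lower with light: Fat4, Fbn2, Rassf2, Nedd4l, Plxna2, Zfp663 and Gli2. Fat4 encodes a giant cadherin of planar cell polarity and of cortical progenitors. It stood at 170.5, 149.5, 156, 159.5 and 160.1 CPM in treated jj pups, against 180.0, 217, 208, 238 and 232 CPM in untreated jj pups. Treated Nj pups had 182, 197, 189, 179 and 168 CPM, against 173, 173, 213, 226 and 210.2 CPM in untreated Nj pups. The jj groups did not overlap and the Nj groups did. The change was -0.43 log2 in jj pups (adjusted p = 0.023) and -0.12 log2 in Nj pups (adjusted p = 0.44), and the interaction was -0.31 (-0.54 to -0.09, unadjusted p = 0.00788). Fbn2 encodes fibrillin 2, a microfibril protein of developing tissue. It stood at 12.8, 12.9, 14.4, 16.6 and 14.6 CPM in treated jj pups, against 19.02, 22.3, 22.6, 21.4 and 17.1 CPM in untreated jj pups. In Nj pups it stood at 14.7, 14.4, 15.4, 19.6 and 16.7 CPM with light, against 15.6, 15.8, 17.1, 19 and 19.3 CPM without. All 5 treated jj pups lay below all untreated jj pups, and its interaction was -0.42 (-0.71 to -0.13, unadjusted p = 0.00668). Rassf2, a Ras-association domain gene, averaged 86.0 ± 3.06 CPM in treated jj and 101 ± 4.88 CPM in untreated jj pups, and 90.6 ± 4.03 CPM in treated Nj and 92.8 ± 4.37 CPM in untreated Nj pups. Its interaction was -0.20 (-0.33 to -0.07). Gli2, a transcription factor of hedgehog signalling, and Zfp663 also had unadjusted p-values under 0.05, with interactions of -0.32 and -0.33, whereas Plxna2, a semaphorin receptor, and Nedd4l, a ubiquitin ligase, had intervals that include 0. These genes were picked for their jj values, which enter the interaction, and none of them passed the test of the interaction.

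Among the 521 genes with an unadjusted interaction p under 0.05, 397 had opposite signs in the genotypes, against 4599 of all 15272 genes. Another 101 had the same sign with the smaller change in jj pups and 23 the same sign with the larger. A low interaction p picks genes whose light changes differ, which favours opposite signs, so this count was largely set by the choice. Of the 521, 106 were called for light in Nj pups (4% of all genes were) and 5 for light in jj pups (0.164%). Those light values enter the interaction, so the genes were in part picked by them. The members below are the leading ones by p and did not pass, so they are given as values. Of the 611 genes called in Nj pups, 22 had the opposite sign in jj pups, among them Tsnaxip1, Anp32a, Arrdc3, Caln1, Avpr1a, Kif24 and Ddit3, and none of the 22 was called in jj pups.

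Anp32a belongs to a family of leucine-rich nuclear phosphoproteins that bind histones and RNA. It stood at 27.5, 31.1, 30.2, 26.9 and 25.6 CPM in treated jj pups, against 25.9, 25.9, 19.1, 27.9 and 25.8 CPM in untreated jj pups. Its levels in Nj pups were 27.9, 28.4, 26.5, 35.2 and 24.1 CPM with light and 50.2, 41.5, 37.5, 43.2 and 30.6 CPM without. All untreated Nj pups stood above all untreated jj pups, while treated and untreated pups overlapped within each genotype. Its light change was 0.18 log2 in jj pups and -0.51 log2 in Nj pups (adjusted p = 0.54 and 0.0196), giving an interaction of 0.70 (SE 0.17, 0.35 to 1.05). A second gene row carries the same symbol and had an interaction of -0.30 (SE 0.25). Summed over both rows, Anp32a averaged 51.6 ± 2.56 CPM in treated jj and 45.5 ± 3.87 CPM in untreated jj pups, and 61.0 ± 11.4 CPM in treated Nj and 64.0 ± 4.66 CPM in untreated Nj pups (SD, n = 5). Counts do not show how reads were divided between the rows, so the value of the leading row is uncertain.

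Tsnaxip1, which encodes a partner of translin-associated factor X, had the lowest interaction p. It stood at 3.37, 4.65, 3.21, 2.47 and 3.47 CPM in treated jj pups, against 2.63, 1.53, 3.43, 2.32 and 1.98 CPM in untreated jj pups. Treated Nj pups had 1.87, 2.16, 2.70, 1.90 and 2.29 CPM, against 2.43, 4.03, 3.67, 4.62 and 3.65 CPM in untreated Nj pups. Both pairs of groups overlapped at this low level. The light change was 0.53 log2 in jj and -0.74 log2 in Nj pups, and the interaction was 1.27 (SE 0.28, 0.68 to 1.86). Other genes with positive interactions and low p were Avpr1a (0.83), a vasopressin receptor, Kif24 (0.59), a centriolar kinesin, Lca5 (0.41), a ciliary protein, Sec23b (0.36), a coat protein of transport vesicles, and the DNA-binding proteins Zbtb12 (0.39) and Zfp592 (0.22). Prag1, a pseudokinase gene, had light changes of the same sign in both genotypes. It averaged 42.4 ± 3.77 CPM in treated jj and 46.9 ± 1.48 CPM in untreated jj pups, and 39.5 ± 1.47 CPM in treated Nj and 54.0 ± 4.30 CPM in untreated Nj pups (SD, n = 5 each). With light it changed by -0.45 log2 in Nj pups (adjusted p = 0.000774), the jj value was -0.14 log2 (adjusted p = 0.3), and the interaction was 0.31 (0.13 to 0.48).

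The leading genes on the negative side included a pair of alpha-arrestins. Arrdc3 directs receptors to ubiquitin ligases. It stood at 13.4, 14.7, 20.2, 17.2 and 17.7 CPM in treated jj pups, against 18.5, 19.3, 17.7, 17.98 and 24.0 CPM in untreated jj pups. In Nj pups it stood at 22.1, 30.1, 20.5, 27.1 and 19.3 CPM with light, against 15.6, 16.5, 19.6, 16.2 and 17.5 CPM without. Treated and untreated pups overlapped in both genotypes. Its light change was -0.23 log2 in jj and 0.48 log2 in Nj pups (adjusted p = 0.43 and 0.0311), and the interaction was -0.71 (SE 0.17, -1.07 to -0.35). Txnip, the thioredoxin-interacting protein that limits glucose uptake, had light values of the same signs. It stood at 67.1, 63.6, 73.5, 95.4 and 74.1 CPM in treated jj pups, against 98.6, 113, 108, 103 and 99.0 CPM in untreated jj pups. Its levels in Nj pups were 74.4, 100.0, 80.5, 112 and 84.0 CPM with light and 74.5, 55.6, 94.5, 81.7 and 79.7 CPM without. The treated jj pups all lay below the untreated jj pups, while the Nj groups overlapped. Neither light change passed (-0.48 log2 in jj and 0.23 log2 in Nj pups, adjusted p = 0.126 and 0.397), and the interaction was -0.71 (SE 0.19, -1.11 to -0.31).

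Fgl2, a fibrinogen-like protein of immune cells, had an interaction of -0.84 (SE 0.21) and averaged 4.11 ± 0.67 CPM in treated jj and 5.64 ± 1.18 CPM in untreated jj pups, and 5.01 ± 0.59 CPM in treated Nj and 3.81 ± 0.62 CPM in untreated Nj pups. Coa6, an assembly factor of cytochrome c oxidase, had -0.79 (SE 0.19). Smaller negative values belonged to Caln1, a calcium-binding protein (-0.32, SE 0.08), Ntrk3, the receptor of neurotrophin 3 (-0.21, SE 0.06), Kcnq3, a subunit of the M-type potassium channel (-0.23, SE 0.06), and Slc8a1, a sodium-calcium exchanger (-0.26, SE 0.07). Kcnq3 stood at 71.1, 70.1, 72.7, 71.4 and 71.9 CPM in treated jj pups, against 62.4, 70.4, 72.1, 71.7 and 68.5 CPM in untreated jj pups. Treated Nj pups had 77.1, 74.8, 73.1, 73.8 and 67.1 CPM, against 57.8, 60.4, 58.9, 63.1 and 61.9 CPM in untreated Nj pups. The Nj groups did not overlap and the jj groups did. It rose with light in Nj pups by 0.28 log2 (adjusted p = 0.00216), and the jj change was 0.05 log2 (adjusted p = 0.67). Named beside them by p, Hmbox1, a telomere-binding homeobox protein, and Pdzrn3, a ubiquitin ligase, had interactions of -0.31 and -0.22. The sign of the interaction of every gene named from Anp32a to here was the same in all alternatives run. These genes were chosen for low interaction p in the same libraries, which makes a steady sign likely, so it adds no support.

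**Figure D3:**
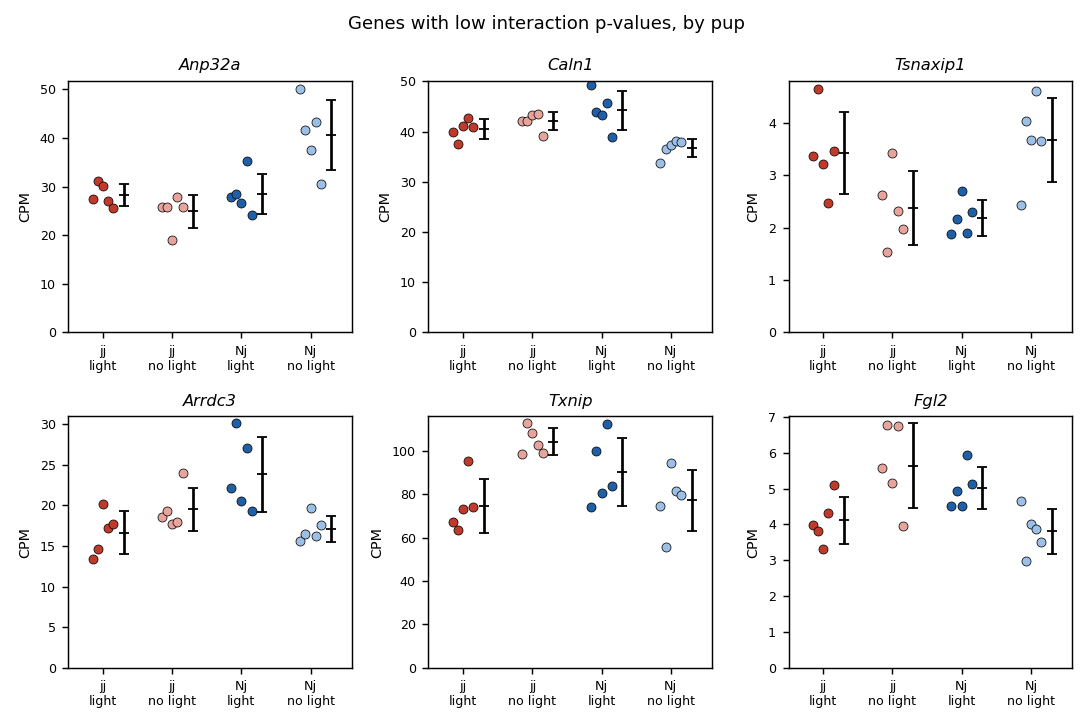
CPM of 6 genes with low interaction p-values that did not pass the adjusted threshold, 1 point per pup, with mean and SD (n = 5) beside each group. In Anp32a the untreated Nj pups stand highest on average, and in Arrdc3, Txnip and Fgl2 the light changes point down in jj and up in Nj pups, with overlapping points except for Txnip in jj pups.

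Among the 1541 genes of the average light response, those with the lowest interaction p on the positive side were Prag1, Zbtb12, Prdm2, Nup62 and Khsrp. All 5 fell with light in Nj pups (adjusted p from 0.000774 to 0.0121), with jj changes from -0.22 to -0.01 log2. Khsrp, an RNA-binding regulator of splicing and decay, averaged 63.1 ± 3.64 CPM in treated jj and 68.2 ± 5.08 CPM in untreated jj pups, and 56.4 ± 2.66 CPM in treated Nj and 72.3 ± 4.42 CPM in untreated Nj pups. The negative side included Kcnq3, Rassf2, Fbn2 and Fat4, of which Rassf2, Fbn2 and Fat4 fell with light in jj pups and Kcnq3 rose with light in Nj pups.

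Genes of cholesterol synthesis and uptake are switched on together by the transcription factor SREBP2 when sterols in the cell run low, and the newborn brain makes its own cholesterol. Of 26 tested genes, 0 passed the interaction, 0 passed for light in jj pups (0.164% of all genes) and 4 were lower with light in Nj pups (2.51% of all genes were called lower there). Of the interactions, 21 of 26 were positive (51.3% of all genes were), with a median of 0.099 log2 against 0.0036 log2 over all genes, and 0.058 log2 with the most common title prefix alone among untreated Nj pups. The median light change was 0.06 log2 in jj and -0.04 log2 in Nj pups.

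Dhcr7, which reduces a double bond of the sterol in a last step of synthesis, is named here after its values were seen, as are Srebf2 and Mvd. It stood at 93.1, 83.5, 83.2, 90.5 and 95.02 CPM in treated jj pups, against 88.3, 91.9, 95.3, 84.9 and 88.0 CPM in untreated jj pups. In Nj pups it stood at 89.8, 80.8, 87.3, 83.1 and 77.8 CPM with light, against 103, 98.7, 86.7, 101 and 94.8 CPM without. Treated and untreated pups overlapped in both genotypes. Dhcr7 fell with light in Nj pups by 0.21 log2 (adjusted p = 0.0296), the jj value was -0.01 log2 (adjusted p = 0.964), and the interaction was 0.20 (0.04 to 0.35). Srebf2, which encodes SREBP2, averaged 231 ± 13.0 CPM in treated jj and 241 ± 15.2 CPM in untreated jj pups, and 222 ± 11.5 CPM in treated Nj and 257 ± 9.56 CPM in untreated Nj pups, and its Nj groups did not overlap. It fell with light in Nj pups by 0.21 log2 (adjusted p = 0.0172), with a jj value of -0.06 log2 (adjusted p = 0.611) and an interaction of 0.15 (0.01 to 0.29). Mvd makes isopentenyl diphosphate and had an interaction of 0.21 (0.00 to 0.42). In all, 5 members of the list had an unadjusted interaction p under 0.05, all with positive interactions (19.2% of the list, 1.67% of all genes). Without the Ttr-rich libraries 2 were higher and 1 lower, and single libraries left out gave 2 to 6.

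SREBP2 acts with the factor NF-Y, which binds the letters CCAAT. The 2 promoters shown are those of Srebf2 and Mvd, picked by name and not for lowest interaction p (edgeR unadjusted p = 0.0383 and 0.0472). They are RefSeq sequences of build GRCr8, 250 bases before to 50 bases after the gene start, read 5′ to 3′ on the gene's strand, with CCAAT in capitals, or ATTGG where it lies on the other strand. Srebf2 lies at chr7:115543057-115543356 on the plus strand and holds 1 match, and Mvd lies at chr19:67414925-67415224 on the minus strand and holds 2.
Srebf2: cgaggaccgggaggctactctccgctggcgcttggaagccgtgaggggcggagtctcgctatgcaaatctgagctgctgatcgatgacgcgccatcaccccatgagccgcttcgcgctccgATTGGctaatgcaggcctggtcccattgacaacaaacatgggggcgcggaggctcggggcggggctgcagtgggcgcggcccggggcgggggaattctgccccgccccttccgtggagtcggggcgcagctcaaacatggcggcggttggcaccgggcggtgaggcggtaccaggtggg
Mvd: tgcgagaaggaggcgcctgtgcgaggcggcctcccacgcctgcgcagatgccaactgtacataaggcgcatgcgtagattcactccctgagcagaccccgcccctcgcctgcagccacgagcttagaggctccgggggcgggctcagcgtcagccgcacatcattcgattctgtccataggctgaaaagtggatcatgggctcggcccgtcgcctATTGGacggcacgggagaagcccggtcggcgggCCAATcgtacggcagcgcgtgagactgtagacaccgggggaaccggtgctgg
CCAAT, searched on both strands, was found in 14 of the 17 cholesterol genes with an entry (82.4%) and in 37.5% of all 33469 promoters of this length. The letters TCACNCCAC, a form of the sterol response element, were found in 0 of 17 and in 1.12% of all. In both searches a listed gene counted if any of its promoters matched. The shares of all count single promoters, also of genes not tested. A match describes the letters and does not show binding.

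Interneurons are the inhibitory cells that make GABA, and in the newborn hippocampus they are still arriving and maturing. Of 26 tested genes 0 passed the interaction, and 6 had an unadjusted p under 0.05 (23.1% of the list, 3.41% of all genes), all with positive interactions. Among them, and apart from Sp8 named after their values were seen, were Sp8, Dlx1 and Dlx5, transcription factors of the lineage, Slc32a1, the vesicular GABA transporter, and Gad1, the enzyme that makes GABA. In all, 16 of 26 interactions were positive (51.3% of all genes were), with a median of 0.057 log2. The median was 0.009 without untreated jj pup 1 and 0.031 with the most common title prefix alone among untreated Nj pups, and without the Ttr-rich libraries 13 of 26 were positive with a median of 0.028. The positive median stood beside group values of the other order, since the median light changes were 0.01 log2 in jj and 0.03 log2 in Nj pups. For light in jj pups 0 members were higher and 1 lower (Reln), where 0.0393% and 0.124% of all genes were, and in Nj pups 2 were higher (Sst and Pvalb) and 5 lower (Dlx1, Dlx2, Dlx5 and Reln among them), where 1.49% and 2.51% of all genes were.

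Dlx5 is a homeobox factor of newly born interneurons. It stood at 9.83, 6.39, 7.66, 7.97 and 7.79 CPM in treated jj pups, against 8.69, 7.78, 7.56, 8.59 and 8.16 CPM in untreated jj pups. Its levels in Nj pups were 6.19, 6.82, 7.74, 6.20 and 6.31 CPM with light and 9.14, 8.77, 7.49, 10.1 and 7.99 CPM without. Treated and untreated pups overlapped in both genotypes. Dlx5 and Dlx2 had Nj changes of -0.39 and -0.43 log2 (adjusted p = 0.0404 and 0.0398), with jj values of -0.04 and -0.19 log2 (adjusted p = 0.912 and 0.512). The interaction of Dlx5 was 0.35 (0.04 to 0.65) and that of Dlx2 0.24 (-0.10 to 0.58). Slc32a1 loads GABA into vesicles. It stood at 88.0, 76.6, 82.1, 98.7 and 94.7 CPM in treated jj pups, against 76.3, 81.7, 81.3, 83.8 and 83.0 CPM in untreated jj pups. Treated Nj pups had 74.0, 71.7, 74.5, 74.8 and 75.7 CPM, against 75.5, 95.4, 70.4, 95.9 and 83.6 CPM in untreated Nj pups. Treated and untreated pups overlapped in both genotypes. The light changes were 0.12 log2 in jj and -0.18 log2 in Nj pups and neither passed, with an interaction of 0.30 (0.08 to 0.52).

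Gad1 ran from 162 to 198 CPM in treated jj and 146 to 172 CPM in untreated jj pups, and from 167 to 196 CPM in treated Nj and 166 to 195 CPM in untreated Nj pups. Sp8, the gene of largest interaction in the list (1.14, SE 0.35), ran from 2.78 to 4.78 CPM in treated jj and 1.99 to 3.54 CPM in untreated jj pups, and from 1.28 to 2.70 CPM in treated Nj and 1.64 to 4.20 CPM in untreated Nj pups, with overlap in both genotypes. Of genes that mark mature subtypes, Pvalb, the calcium buffer of fast-spiking cells, averaged 1.44 ± 0.21 CPM in treated jj and 0.71 ± 0.28 CPM in untreated jj pups, and 1.23 ± 0.23 CPM in treated Nj and 0.63 ± 0.17 CPM in untreated Nj pups, with no overlap between treated and untreated pups. Its interaction was 0.07 (-0.69 to 0.83), with a sign that changed when single libraries were left out, and that of Sst, the somatostatin gene, was -0.13 (-0.33 to 0.07). The number of members at unadjusted p under 0.05 was 3 without the Ttr-rich libraries and ranged from 3 to 8 when single libraries were left out. Without untreated jj pup 3, 5 were higher and 3 lower. In bulk tissue, fewer cells of a type and less RNA per cell cannot be told apart.

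**Figure D4:**
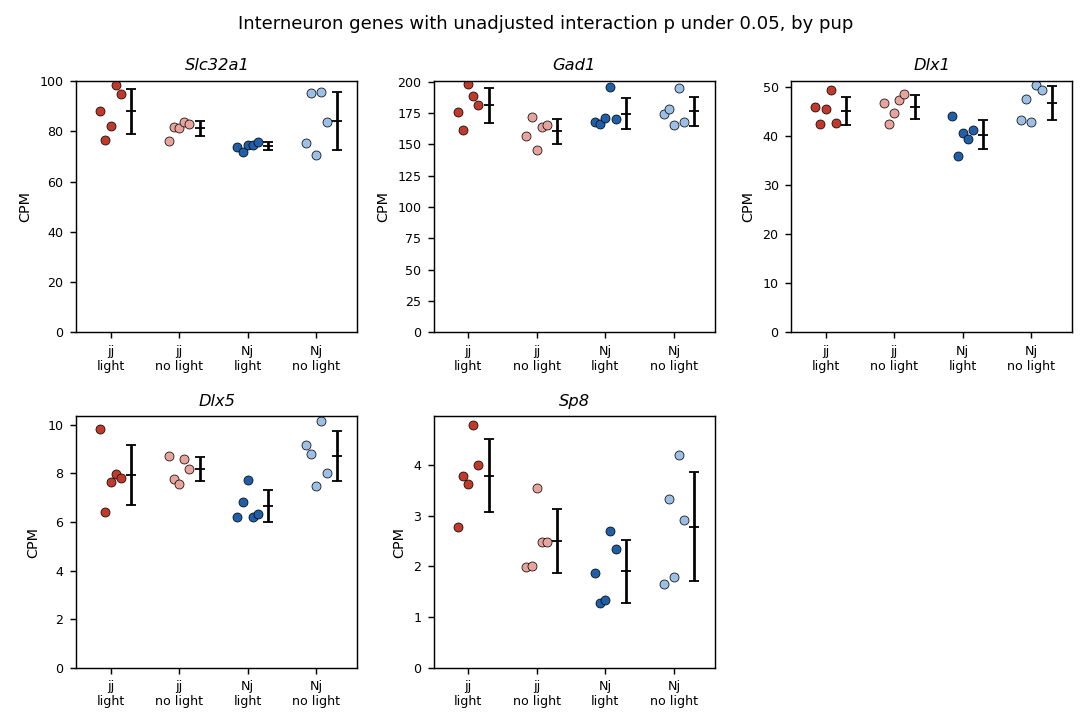
CPM of 5 interneuron genes with an unadjusted interaction p under 0.05, 1 point per pup, with mean and SD (n = 5) beside each group. Dlx1 and Dlx5 are lower in treated than in untreated Nj pups on average and close to level in jj pups, and Gad1 overlaps in all 4 groups.

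Genes of microglia, the resident immune cells of the brain, mostly had negative interactions. Of 22 tested genes 0 passed the interaction, 17 were negative (51.3% of all genes were positive), and the median was -0.13 log2, and -0.211 without the Ttr-rich libraries. For light in jj pups 0 were called, and in Nj pups 4 were higher (1.49% of all genes were): P2ry12, the purinergic receptor of resting microglia, Lyz2, lysozyme, Aif1, the gene of the marker IBA1, and Ctss, cathepsin S. P2ry12 stood at 10.7, 10.4, 10.4, 8.63 and 9.01 CPM in treated jj pups, against 8.79, 9.02, 8.32, 7.80 and 7.84 CPM in untreated jj pups. In Nj pups it stood at 11.3, 11.1, 11.4, 10.5 and 12.2 CPM with light, against 7.76, 9.24, 7.397, 5.88 and 7.39 CPM without. Treated and untreated Nj pups did not overlap and those of jj pups did. It rose by 0.58 log2 in Nj pups (adjusted p = 0.00267), the jj change was 0.24 log2 (adjusted p = 0.3), and the interaction was -0.35 (-0.63 to -0.07). Adgre1, the macrophage marker F4/80, had the lowest interaction p of the list, 0.00261, with an interaction of -0.51. It averaged 7.06 ± 0.44 CPM in treated jj and 8.29 ± 1.503 CPM in untreated jj pups, and 7.26 ± 0.48 CPM in treated Nj and 5.99 ± 0.54 CPM in untreated Nj pups. The defining gene Tmem119 had an interaction of 0.33, of the other sign. The meninges list described below was also negative. With the meninges level as a covariate, 15 of the 22 were negative with a median of -0.09, and 2 still had an unadjusted p under 0.05.

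Lists of growth and maturation had medians of the same sign in both genotypes. Of 24 immature neuron genes, 2 were lower with light in jj pups (0.124% of all genes were) and 6 in Nj pups (2.51%), with median changes of -0.16 log2 in jj and -0.23 log2 in Nj pups and a median interaction of 0.04. Tubb3, the neuron-specific tubulin, had light values of -0.15 log2 in jj pups (adjusted p = 0.298) and -0.32 log2 in Nj pups (adjusted p = 0.00875), with an interaction of 0.17 (-0.02 to 0.35). Of 34 proliferation genes, 1 was lower in jj pups (Mcm3, against 0.124% of all genes) and 8 in Nj pups (against 2.51%), with medians of -0.12 log2 in jj and -0.18 log2 in Nj pups. Mki67, which marks cycling cells, had light values of -0.27 log2 in jj and -0.28 log2 in Nj pups (adjusted p = 0.12 and 0.0405) and an interaction of 0.00 (-0.22 to 0.22). Of 18 neural progenitor genes 0 were called in jj pups (0.164% of all genes were) and 3 were lower in Nj pups (2.51%). Their median interaction was 0.11, with 14 of 18 positive (51.3% of all genes were). The median was 0.055 without treated jj pup 1 and 0.07 without treated Nj pup 4. Nes, the nestin gene, had an Nj change of -0.55 log2 (adjusted p = 0.00596), with a jj value of -0.29 log2 (adjusted p = 0.201) and an interaction of 0.26 (-0.03 to 0.55).

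Among maturing neuronal genes, 5 of 18 calcium-binding genes were higher with light in Nj and 0 in jj pups (1.49% and 0.0393% of all genes were), yet the medians were 0.13 log2 in jj and 0.16 log2 in Nj pups. Vsnl1, a neuronal calcium sensor, averaged 249 ± 34.2 CPM in treated jj and 180.4 ± 30.3 CPM in untreated jj pups, and 254 ± 8.13 CPM in treated Nj and 182 ± 17.8 CPM in untreated Nj pups. It was called in Nj and not in jj pups (adjusted p = 0.0174 and 0.0692), although its light values were 0.46 log2 in jj and 0.48 log2 in Nj pups and its interaction was -0.01 (-0.32 to 0.29). For 36 respiratory chain genes the medians were 0.10 log2 in jj and 0.10 log2 in Nj pups, with 0 called in jj and 2 higher in Nj pups (1.49% of all genes were), and a median interaction of 0.01. Of 30 axon guidance genes 4 were lower in jj and 4 in Nj pups (0.124% and 2.51% of all genes were), with a median interaction of -0.01. Of 23 ion channel genes 20 had negative interactions (51.3% of all genes had positive ones), with a median of -0.04 that ran from -0.066 to -0.017 with single libraries left out, and 1 was called for light, Kcnq3 in Nj pups.

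Clock and hormone response genes had no called interaction either. Of 19 clock genes 3 were higher with light in Nj pups (Dbp, Tef and Nr1d2, against 1.49% of all genes) and 0 were called in jj pups, with medians of 0.11 log2 in jj and 0.16 log2 in Nj pups. Dbp, an output gene of the clock, averaged 27.2 ± 2.50 CPM in treated jj and 23.8 ± 2.50 CPM in untreated jj pups, and 24.6 ± 0.61 CPM in treated Nj and 19.7 ± 2.42 CPM in untreated Nj pups, and its interaction was -0.13 (-0.37 to 0.12). Of 16 thyroid hormone response genes 4 were higher in Nj and 0 in jj pups (1.49% and 0.0393% of all genes were). Of its interactions 13 were negative, while 51.3% of all genes had positive ones, with a median of -0.06 that was -0.098 without untreated Nj pup 2. Klf9, which answers to both thyroid hormone and glucocorticoid, rose by 0.45 log2 in Nj pups (adjusted p = 0.00126), with a jj value of 0.30 log2 (adjusted p = 0.0653) and an interaction of -0.16 (-0.35 to 0.04). Ddit3, the stress factor CHOP, rose with light in Nj pups by 0.47 log2 (adjusted p = 0.0192) and averaged 8.51 ± 1.17 CPM in treated jj and 8.52 ± 1.26 CPM in untreated jj pups, and 8.77 ± 0.68 CPM in treated Nj and 6.35 ± 0.58 CPM in untreated Nj pups. Its interaction was -0.47 (-0.78 to -0.15).

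The genes closest to bilirubin itself held no call. Of 21 genes of heme breakdown, heme synthesis and bilirubin transport, 0 passed for the interaction or for light in jj or Nj pups. Of all genes 0%, 0.164% and 4% passed these, so 0 of 21 does not set the list apart. Its median interaction was -0.04. Hmox1, the inducible heme oxygenase that opens the heme ring, averaged 6.91 ± 0.79 CPM in treated jj and 7.79 ± 1.12 CPM in untreated jj pups, and 6.64 ± 0.63 CPM in treated Nj and 7.50 ± 0.85 CPM in untreated Nj pups. Its interaction was 0.00 with an interval from -0.32 to 0.32, and its sign changed between the alternatives run. Blvrb, a biliverdin reductase, had -0.17 (-0.37 to 0.03). Of 25 antioxidant genes of the NRF2 pathway, 22 p53 and cell death genes and 25 genes of the unfolded protein and integrated stress response, 0 passed the interaction, with medians of 0.014, -0.004 and 0.042.

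With all libraries and no covariate, lists of tissue at the border of the hippocampus had the largest median interactions. All 17 tested genes of ependyma, the ciliated lining of the ventricles, had positive interactions, with a median of 0.35 log2, and 0 passed. The median light change was 0.19 log2 in jj pups (16 of 17 positive, against 49.8% of all genes) and -0.17 log2 in Nj pups (0 of 17 positive, against 50.3%). The summed level of the list ran from 240 to 421.5 CPM (median 308) in treated jj and 216 to 390 CPM (median 244) in untreated jj pups, and from 211 to 329 CPM (median 232) in treated Nj and 257.5 to 322 CPM (median 296) in untreated Nj pups. The sums of treated and untreated pups overlapped in both genotypes. Ccdc39 and Ak7, both of motile cilia, had the lowest p in the list, with interactions of 0.24 and 0.56. All 17 stayed positive in every alternative run, and with single libraries left out the median ranged from 0.17 without treated jj pup 2 to 0.52 without untreated jj pup 3. Genes of one tissue vary together between libraries, so 17 of 17 is not 17 independent results.

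The choroid plexus list had 19 of 22 positive interactions (51.3% of all genes had) and a median of 0.49 log2, and 0 of its genes passed. Its summed level ran from 394 to 9526 CPM (median 6899) in treated jj and 288 to 11870 CPM (median 565.5) in untreated jj pups, and from 288 to 5193 CPM (median 1082) in treated Nj and 335 to 5456 CPM (median 957) in untreated Nj pups. Its defining gene Ttr was at 3.57 CPM or above in every library. The median interaction was -0.51 without untreated Nj pup 3 and 2.65 without untreated jj pup 3, the pup with the highest Ttr. With the choroid plexus covariate it was -0.003, with 11 of 22 positive. That covariate is the level of the same tissue, so a median near 0 is largely built in. The meninges list had 19 of 20 negative interactions (51.3% of all genes had positive ones) with a median of -0.31, and 0 of its genes passed. This median was -0.159 without treated Nj pup 4 and -0.62 without the Ttr-rich libraries. With the meninges covariate, likewise the level of the same tissue, it was -0.04, with 12 of 20 negative. Its sum ran from 987.5 to 1834 CPM in treated jj, 941 to 2169 CPM in untreated jj, 963.5 to 1612 CPM in treated Nj and 968 to 1599 CPM in untreated Nj pups. Of 11 red blood cell genes 10 were positive (51.3% of all genes were), with a median of 0.31. Without the Ttr-rich libraries 8 of these genes were positive with a median of 0.121. As in ependyma, genes of one tissue vary together, so the counts of these 3 lists are not independent results. The sum of the red blood cell genes ran from 779 to 1142 CPM in treated jj and 658 to 1229 CPM in untreated jj pups. In Nj pups it ran from 759 to 986 CPM with light and 852 to 1158 CPM without. The part of these tissues in the cholesterol, interneuron and microglia values was not tested beyond the fits without the Ttr-rich libraries and with choroid plexus or meninges level as a covariate. With the choroid plexus level as a covariate 8 cholesterol genes and 6 interneuron genes had an unadjusted p under 0.05, and with the meninges level 4 and 5.

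In the remaining lists, the gene with the lowest interaction p is given where that p was under 0.05, and none passed. Grin1, the obligate subunit of NMDA receptors, had 0.19, and Sv2a, of synaptic vesicles, had 0.14, while Stxbp6, of vesicle fusion, had -0.28. Pcp4, a calmodulin regulator, had 0.27, Egr4, an immediate early gene, had 0.41, and Bhlhe41, a clock repressor, had 0.39. Light in jj pups did not pass for Pcp4, Egr4 or Bhlhe41 (edgeR adjusted p = 0.0691, 0.0529 and 0.12). Foxm1, of the cell cycle, had 0.30, Mdm2, the brake on p53, 0.16, Gstm1, a glutathione transferase, 0.15, and Pkm, of glycolysis, 0.11. Mfsd2a, the lipid transporter of brain endothelium, had 0.31, and Pdgfra, of oligodendrocyte precursors and fibroblasts, had -0.13. Hemgn, of red cell precursors, had 0.88 with an SE of 0.38, at group means of only 0.51 to 0.88 CPM. Psmb8, an immunoproteasome subunit, had -0.93 with an SE of 0.43, and Nrgn, the postsynaptic neurogranin, had -0.19. These are log2 interactions. A set of the ANP32 family, its partner Set and protein phosphatase 2A held 11 genes in 13 tested rows. The leading row of Anp32a alone was called, lower in Nj pups, and the median interaction of the rows was -0.005. The second row of Anp32a had a light change of 0.47 log2 in Nj pups (edgeR adjusted p = 0.144). Lists with no such gene included those of glucocorticoid response, heat shock, astrocytes, myelin, hippocampal CA neurons, Cajal-Retzius cells and the aryl hydrocarbon receptor pathway.

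**Figure D5:**
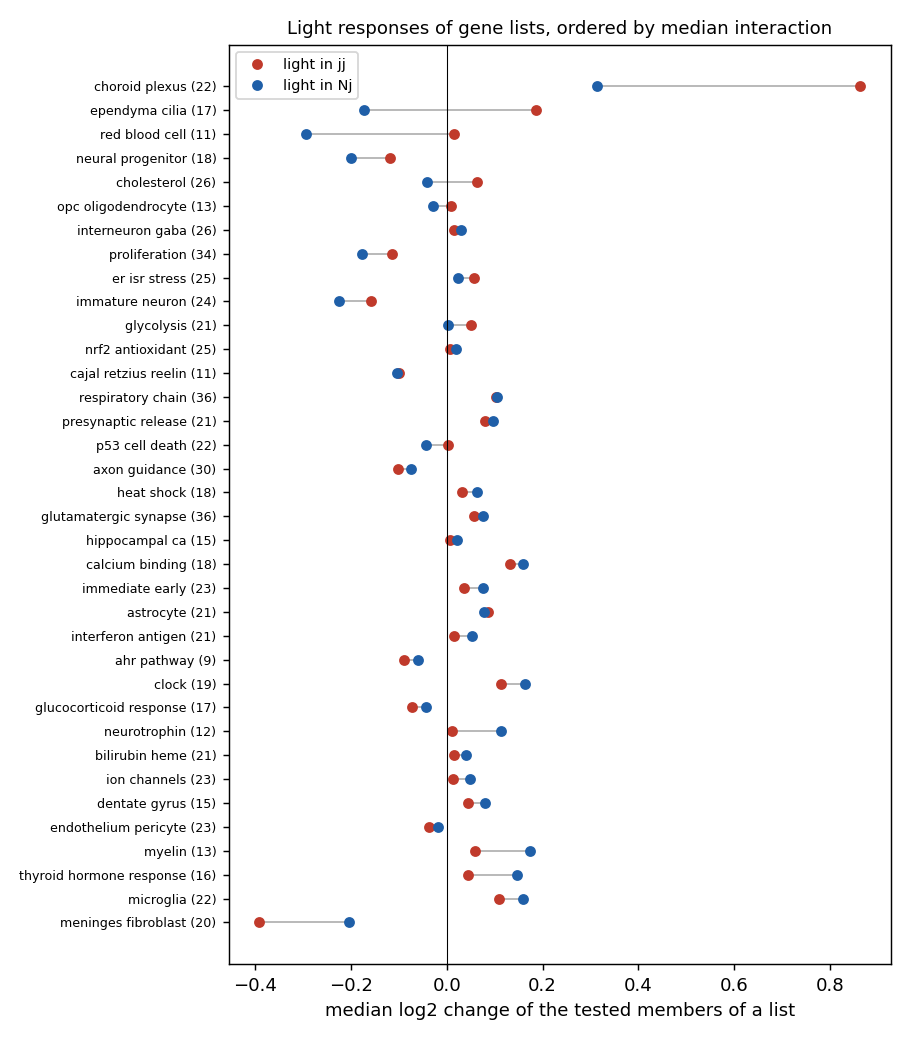
Median log2 change with light of the tested members of 36 gene lists (number of members in brackets), in jj pups and in Nj pups, ordered from the highest median interaction at the top to the lowest at the bottom. Choroid plexus, ependyma and red blood cell genes have the most positive and meninges genes the most negative median, and lists of growth and maturation lie close together in the genotypes.

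A gene below the low-count filter was called in a single alternative. LOC103689971, to which no role is given here, had 2, 54, 34, 43 and 118 raw counts in treated jj pups and 2, 1, 2, 1 and 5 in untreated jj pups, and 8, 4, 10, 2 and 5 in treated Nj and 8, 11, 3, 3 and 8 in untreated Nj pups. Of the treated jj pups, 4 lay above all other pups and pup 1 did not. When treated jj pup 1, with 2 counts, was left out, it passed the low-count filter through the other treated jj pups, where it is high. It was then the gene with the lowest interaction p (edgeR adjusted p = 0.0133). Its entry rested on the group where it is high and this p on leaving out that pup, so the p is no support for a difference. In edgeR without a count filter, with all pups and 22829 genes tested, 0 genes were called for the interaction. In DESeq2 with all pups its adjusted p was 0.199.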

How the data were processed

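Hippocampal polyA RNA of 20 Gunn rat pups was sequenced from Illumina TruSeq libraries, per the labels' protocols. The deposited values are raw read counts per Ensembl rat gene and library, per the file headers. The submitters' processing notes name FastQC, TopHat2 2.0.13, Subread and edgeR, and the build mm10, although the identifiers are of rat. Overlapping and antisense genes may share reads, because the strand setting, like the rat build, is not given in the sources used here. From these counts, genes were filtered with edgeR's filterByExpr, scaled by TMM and fitted in edgeR 4.0.16 (R 4.3.3) with robust quasi-likelihood and 1 mean per group over all 20 libraries. Contrasts were adjusted by Benjamini-Hochberg over 15272 genes at 0.05. Total counts of 16.9 M to 27.1 M limit precision most for genes of a few CPM.

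CPM values use TMM-scaled library sizes. The steps were tested on simulated data. DESeq2 1.42.0, limma 3.58.1 voom, other filters and scaling, a Y-linked covariate, the most common title prefix of untreated Nj pups and each library left out were alternatives. 3 were added after seeing the data: without libraries above 1000 CPM of Ttr, and choroid plexus or meninges level as a covariate. Members and the 37 gene lists were chosen with earlier results of these data known. Named genes were those of lowest interaction p (up to 10 per direction with average log2 CPM of at least 1), the lowest of each list if under 0.05, a fixed set, the 5 per direction of lowest interaction p among genes called for average light, and the 5 of lowest p called in both genotypes. Some genes that these rules or lists hold are not reported here. The labels do not say whether pups of a group shared a litter, so p-values measure only the spread between these pups.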

Additional observations from a re-analysis of the deposited data

Results flagged for a closer look

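Among 216 groups of 5 pups examined for the named genes, 10 held 1 pup apart from the other 4 by Dixon's criterion, where chance gives about 1 in 20. On the side of jj pups, Anp32a was 19.1 CPM in untreated jj pup 3, against 25.8 to 27.9 CPM in the other 4, and Pcp4 was 57.4 CPM in the same pup, against 80 to 85.7 CPM. Arrdc3 was 24.0 CPM in untreated jj pup 5, against 17.7 to 19.3 CPM. Zfp592 was 51.6 CPM in treated jj pup 1, against 46.8 to 48 CPM. Treated jj pup 2 had 28.9 CPM of Ccdc39, against 23 to 24 CPM, and 21.2 CPM of Blvrb, against 19.8 to 20.1 CPM.

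Of the Nj pups, treated pup 3 had 3.32 CPM of Coa6, against 4.2 to 4.49 CPM, and treated pup 2 had 9.73 CPM of Foxm1, against 12.1 to 13.1 CPM. Untreated pup 3 had 0.33 CPM of Pvalb, against 0.627 to 0.735 CPM. Untreated pup 1 had 109 CPM of Slc8a1, against 121 to 125 CPM. The interactions of Coa6, Anp32a and Arrdc3, chosen for low interaction p in these libraries, kept their sign when each library was left out.

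Outside the genes tested, LOC103689971 had a median of 43 raw counts in treated jj pups, against 2 in untreated jj, 5 in treated Nj and 8 in untreated Nj pups. Its counts in every pup stand in the results above.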

How the results depend on the processing

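The count of interaction calls was 0 in every alternative except without treated jj pup 1, so the range with single libraries left out was 0 to 1. The interaction at unadjusted p counted 811 genes without a count filter and 451 to 1034 with single libraries left out. The light in jj calls numbered 272 with DESeq2, 14 with limma voom, 13 with the Y-linked covariate, 72 with the most common title prefix alone, 0 without the Ttr-rich libraries, 83 with the choroid plexus and 6 with the meninges covariate, and 0 to 75 with single libraries left out. The light in Nj calls numbered 980 with DESeq2, 112 without the Ttr-rich libraries and 152 to 1070 with single libraries left out. The average light calls numbered 424 without the Ttr-rich libraries and 1020 to 1697 with single libraries left out. Jaundice with light calls numbered 2 and jaundice without light calls 1 with DESeq2, and each 0 to 1 with single libraries left out.

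The list median of opc_oligodendrocyte was -0.021, of respiratory_chain -0.032, of interferon_antigen -0.169 and of neurotrophin -0.135 with the most common title prefix alone, and of microglia -0.211 without the Ttr-rich libraries. The list median of choroid_plexus ran from -0.513 to 2.648. Interactions near 0 changed sign: gene Lynx1 was 0.012 without the Ttr-rich libraries and -0.1 to 0.036 with single libraries left out, gene Cachd1 -0.008 with the meninges covariate and -0.015 to 0.031, gene Hmox1 -0.045 to 0.083, gene Pvalb -0.074 to 0.229 and gene Tnc -0.023 to 0.1. The cause was not tested. The other genes named by the rule kept their sign in the alternatives run. Most of them were chosen for low interaction p in the same libraries, which makes a steady sign likely. No paired analysis was possible because the labels carry no replicate numbers shared between groups. With 5 pups per group, depth limits genes of a few CPM or less most, such as Tsnaxip1, Sp8, Pvalb and Hemgn.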
